A study of Mus musculus with 10 samples.

Results

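The genes described here are 38 mouse genes of glucose breakdown and of the response to low oxygen, taken by symbol from the 52171 genes of a deposited RNA-seq table. They cover glucose uptake, the glycolytic enzymes and the enzymes that set their pace, lactate formation and export, the control of pyruvate entry into mitochondria, and Hif1a with genes it is known to regulate. All 38 symbols were present in the table. The cells were leukemia stem cells, the fraction of an acute myeloid leukemia (AML) that can start the disease again, sorted from mouse bone marrow as lineage-negative, Sca-1-negative, c-Kit+, CD16/32+ and CD34+ cells. The leukemias of every mouse were driven by MLL-AF9, a fusion oncogene of human AML. The Nup214-HET group (genotype Nup214fl/+,Tie2-cre, 5 libraries) carried 1 floxed Nup214 allele and a Cre recombinase under the Tie2 promoter, which is active in endothelial and blood-forming cells. The control group (genotype Nup214fl/+, 5 libraries) carried the same floxed allele without Cre. Cre was present in the heterozygous group only, so effects of Cre and of the loss of 1 Nup214 copy cannot be told apart. The labels give neither the age of the mice nor whether each library stands for its own mouse, so the p-values compare the groups with a spread between libraries that may be partly technical. The labels call the sorted cells hematopoietic stem cells.

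Glycolysis turns glucose into pyruvate in the cytosol and yields ATP without oxygen. Hexokinase traps glucose in the cell, phosphofructokinase commits it to breakdown, and pyruvate kinase makes pyruvate, which lactate dehydrogenase turns into lactate or the mitochondrial pyruvate dehydrogenase complex burns further. When oxygen is low, the prolyl hydroxylases that mark Hif1a protein for destruction slow down, Hif1a pairs with Arnt, and the pair raises transcription of most glycolytic genes, of pyruvate dehydrogenase kinases and of its own hydroxylase Egln3. Blood stem cells in the marrow are known for a strong reliance on glycolysis. Hif1a activity is set mainly by the stability of its protein, which RNA-seq does not measure.

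The values are the authors' normalized reads, that is, read counts divided by 1 factor per library, with no correction for gene length. Library depth was 24.6 to 39.1 M reads in Nup214-HET and 20.8 to 30.1 M in control, and 19541 to 25684 genes had a read in Nup214-HET libraries against 26913 to 30277 in control libraries. Nup214 itself, a nucleoporin of the cytoplasmic face of the nuclear pore, had 376, 504, 602, 446 and 492 normalized reads in Nup214-HET and 867, 908, 984, 811 and 959 in control. No library of one genotype reached the range of the other, and the Nup214-HET mean was 53.4% of the control mean (484 ± 83.1 in Nup214-HET against 906 ± 69.8 in control, SD, n = 5 each; log2 change −0.92, SE 0.130, limma adjusted p = 0.00144; exact two-sided permutation p = 0.00794, the smallest that 5 against 5 libraries allow). The Nup214-HET libraries differed widely among themselves in RNA of neutrophil and erythroid marker genes. Whether that RNA came from other cells or from the sorted leukemia cells themselves was not tested. The 14 neutrophil marker genes, led by S100a8, summed to 67259 and 113519 normalized reads in Nup214-HET libraries 1 and 2 and to 2343232, 1858166 and 4275937 in libraries 3, 4 and 5, against 1140918 to 1678573 in control. The 12 erythroid marker genes, led by Hba-a1, summed to 10.5 and 118 in Nup214-HET libraries 1 and 2 and to 2427, 2779.7 and 2285 in libraries 3, 4 and 5, against 34.2 to 89.3 in control. The 12 monocyte and macrophage markers did not move together: 5 were called higher (Cd68, C1qa, C1qb, C1qc and Mrc1) and 1 lower (Ly6c2), with a median log2 change of 0.94. Ly6c2 dominates their sum, which was 24629 to 94586 in Nup214-HET and 78083 to 114322 in control. No marker of any list was at 0 in all 10 libraries. Markers of B cells summed to 518 to 925 in Nup214-HET and 1040 to 1344 in control, those of T cells to 9.81 to 46.1 in Nup214-HET and 16.6 to 29.2 in control, and those of endothelial cells to 563 to 1311 in Nup214-HET and 406 to 681 in control. Of the genes behind the sort, Kit was lower in Nup214-HET (673 to 1676, against 1822 to 2820 in control; log2 change −0.89, adjusted p = 0.0184), as was Ly6a, which encodes Sca-1 (77.8 to 198, against 187 to 254 in control; −0.83, adjusted p = 0.0339). Cd34 had 71.4 to 394 in Nup214-HET and 169 to 410 in control, and Fcgr3, which encodes CD16, 4501 to 30703 in Nup214-HET and 6177 to 13844 in control. Neither was called, nor was Fcgr2b, the remaining gene of the 5. These 2 lower calls depended on the libraries and the scaling: 1 gene was lower under quantile normalization and 0 without control library 1. Without Nup214-HET libraries 3, 4 and 5, 1 of the 5 was lower and 1 higher, and without libraries 1 and 2, 3 were lower. Each result below that rests on libraries 1 and 2 or on libraries 3, 4 and 5 is therefore given with and without them. These subsets were chosen with earlier results of these data known. Their SEs and p-values leave out the spread between the 2 sets of libraries and are descriptive only. In these bulk libraries fewer cells of a type and less RNA per cell cannot be told apart.

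Of the 38 genes, 37 passed the filter on low values (at least 1 normalized read in at least 5 libraries); Pdk4 did not. At an adjusted p under 0.05 in limma's moderated test over all 22458 genes tested, 6 of the 37 rose in Nup214-HET cells, which is 16.2%, where 5.0% of all tested genes rose. The genes were the hexokinase Hk3, the phosphofructokinases Pfkm and Pfkp, the aldolase Aldoc, the prolyl hydroxylase Egln3 and the stress gene Ndrg1. Pdk2, a pyruvate dehydrogenase kinase, was the gene that fell, 1 of 37 or 2.70%, where 8.01% of all tested genes fell. In 7 of the 37, or 18.9%, every Nup214-HET library lay above every control library (Hk3, Pfkm, Pfkp, Aldoa, Pkm, Egln3 and Ndrg1), against 4.64% of all tested genes. In Pfkfb2 and Pdk2, 5.41% of the 37, every Nup214-HET library lay below every control library, against 6.67% of all tested genes. These shares cover genes of all levels and were not computed for well-expressed genes alone. Normalized totals were also higher in every Nup214-HET library (29.6 to 37.8 M) than in every control library (26.7 to 28.4 M). Separations by a small margin, as in Pkm and Aldoa, thus depend on the scaling. When only the 9056 genes with a mean of at least 100 normalized reads were tested, 10.6% rose, beside 5 of the 30 genes described here at that level (16.7%). Of the same 9056 genes 311 fell, beside 1 of the 30 (3.33%), so falls were not scarcer among the described genes at that level. The median log2 change was 0.12 over the 37 genes and −0.19 over all tested genes. At a mean of at least 100 the medians were close, 0.10 over the 30 genes and 0.08 over the 9056. Quantile normalization moved the median of all genes to −0.02 and that of the 37 genes to −0.02, and small changes below are to be read against that shift.

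**Figure D1:**
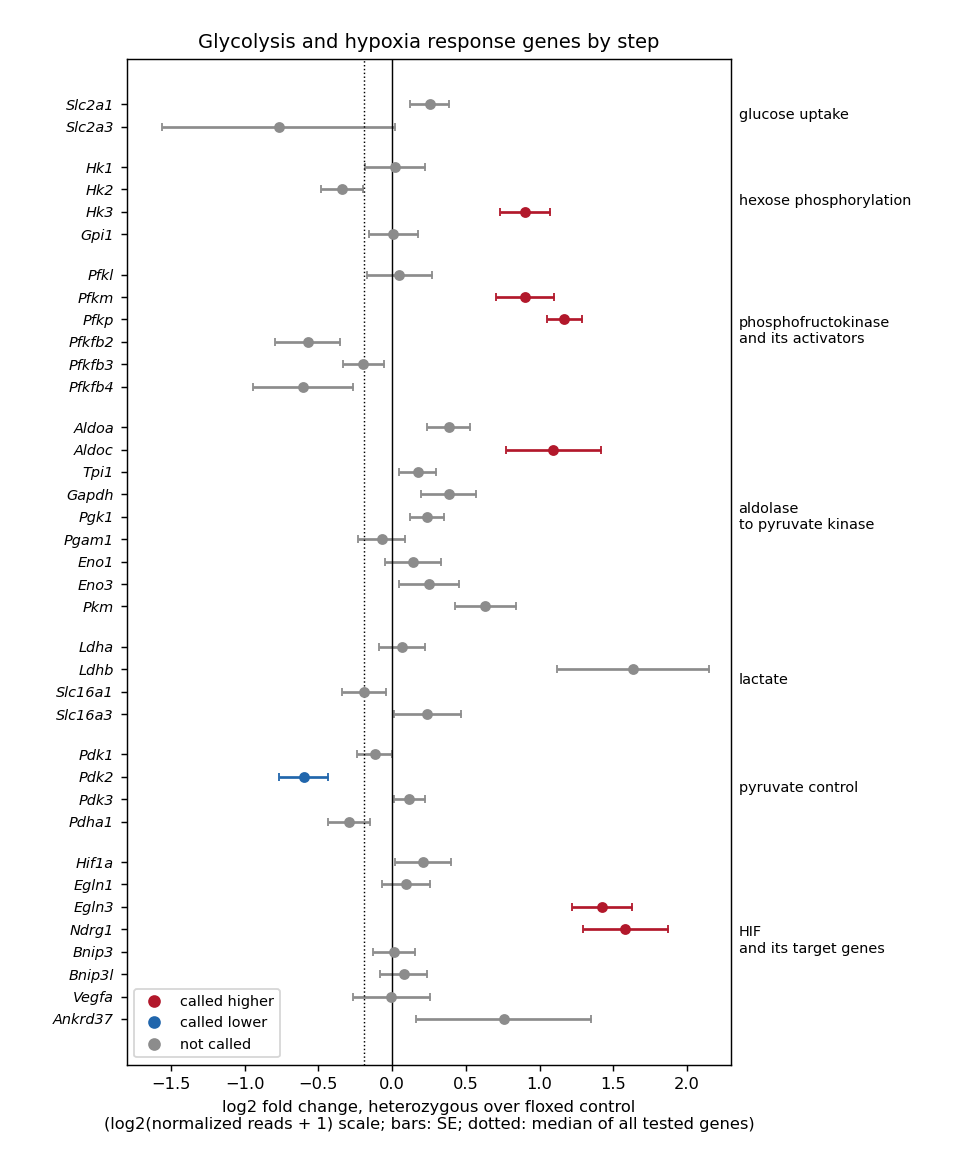
Log2 change (Nup214-HET over floxed control, on log2 of normalized reads + 1) of each of the 37 tested genes, grouped by step, with bars for the SE and a dotted line at the median of all tested genes; red marks genes called higher, blue called lower and grey not called. Pfkp, Egln3, Ndrg1, Hk3, Pfkm and Aldoc lie right of 0 and Pdk2 left of it, and Slc2a3 (SE 0.789) and Ankrd37 (SE 0.594) have the widest bars.

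The promoters of 4 called genes are shown because hypoxia response elements share a short core, searched here as ACGTG and as GCGTG on both strands (CACGT and CACGC when read on the other strand), where CACGTG counts as ACGTG on each strand. The windows are RefSeq's for the mouse build GRCm38.p6 (mm10), from 250 bases before to 50 after an annotated start, written 5′ to 3′ on the gene's strand with the matches in capitals. The Pfkp window (chr13:6648722-6649021, minus strand) held 4 matches, all GCGTG, and the Egln3 window (chr12:54203825-54204124, minus strand) held 1, ACGTG. The Hk3 window (chr13:55021336-55021635, minus strand) held 1 match, and the upstream one of the 2 Pdk2 windows (chr11:95041322-95041621, minus strand) held a CACGTG. The other Pdk2 window held no match and is not shown. Also not shown are the 4 windows of Pfkm, with 3, 2, 1 and 0 matches, and the 2 of Aldoc, with 3 and 1. Ndrg1 had no window.
Pfkp: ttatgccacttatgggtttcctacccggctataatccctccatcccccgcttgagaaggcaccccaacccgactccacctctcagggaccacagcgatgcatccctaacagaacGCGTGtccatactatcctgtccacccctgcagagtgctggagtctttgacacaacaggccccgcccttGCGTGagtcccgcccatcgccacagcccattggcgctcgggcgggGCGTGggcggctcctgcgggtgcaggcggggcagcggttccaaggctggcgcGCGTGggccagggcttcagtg
Egln3: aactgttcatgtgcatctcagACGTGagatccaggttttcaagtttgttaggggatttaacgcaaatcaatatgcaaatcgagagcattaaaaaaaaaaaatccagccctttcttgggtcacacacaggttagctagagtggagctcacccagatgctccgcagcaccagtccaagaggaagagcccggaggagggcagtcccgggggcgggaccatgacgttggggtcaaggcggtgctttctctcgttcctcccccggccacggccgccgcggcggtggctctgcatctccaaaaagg
Hk3: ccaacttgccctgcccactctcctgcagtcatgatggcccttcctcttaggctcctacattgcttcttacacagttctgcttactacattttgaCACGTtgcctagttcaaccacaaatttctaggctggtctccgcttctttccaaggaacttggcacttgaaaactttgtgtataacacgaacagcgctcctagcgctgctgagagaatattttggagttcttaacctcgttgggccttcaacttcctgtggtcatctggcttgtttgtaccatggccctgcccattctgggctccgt
Pdk2: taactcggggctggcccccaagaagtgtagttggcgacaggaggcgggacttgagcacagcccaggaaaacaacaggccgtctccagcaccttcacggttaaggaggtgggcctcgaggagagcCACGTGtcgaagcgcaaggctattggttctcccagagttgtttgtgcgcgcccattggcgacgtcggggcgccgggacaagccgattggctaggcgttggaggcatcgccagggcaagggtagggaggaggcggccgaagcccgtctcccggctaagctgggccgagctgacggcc
In all, 35 of the 38 genes had at least 1 window, and 82.7% of their 52 windows held a match, against 43.8% of all 32851 windows and 64.1% of the 9059 windows of genes with a mean of at least 100 normalized reads. The gene sets also differed in base composition, with a median of 19 CpG per window in the 38 genes, 7 in all windows and 21 in windows of the well-expressed genes. Such a match is a description of the letters and not evidence of binding, and genes that rose (Pfkp) and fell (Pdk2) both have one.

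Per kilobase of exon, which allows levels of different genes to be set side by side, the enzymes of the lower pathway were the most abundant. In Nup214-HET, Pkm led with 35649.8 ± 9214 normalized reads per kb, followed by Gapdh with 28920.0 ± 4296, Aldoa with 26026 ± 3147, Eno1 with 23581 ± 5556 and Pgam1 with 23437 ± 4272 (SD, n = 5). In control cells the order was Pgam1 with 24401, Pkm with 22404, Gapdh with 22264, Eno1 with 20908 and Aldoa with 19911, neighbours whose spreads overlapped. Together the 38 genes took 2.32% to 2.64% of all normalized reads in Nup214-HET libraries and 2.21% to 2.51% in control libraries (2.51% ± 0.147 in Nup214-HET against 2.36% ± 0.140 in control, SD, n = 5 each), and these ranges overlap.

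**Figure D2:**
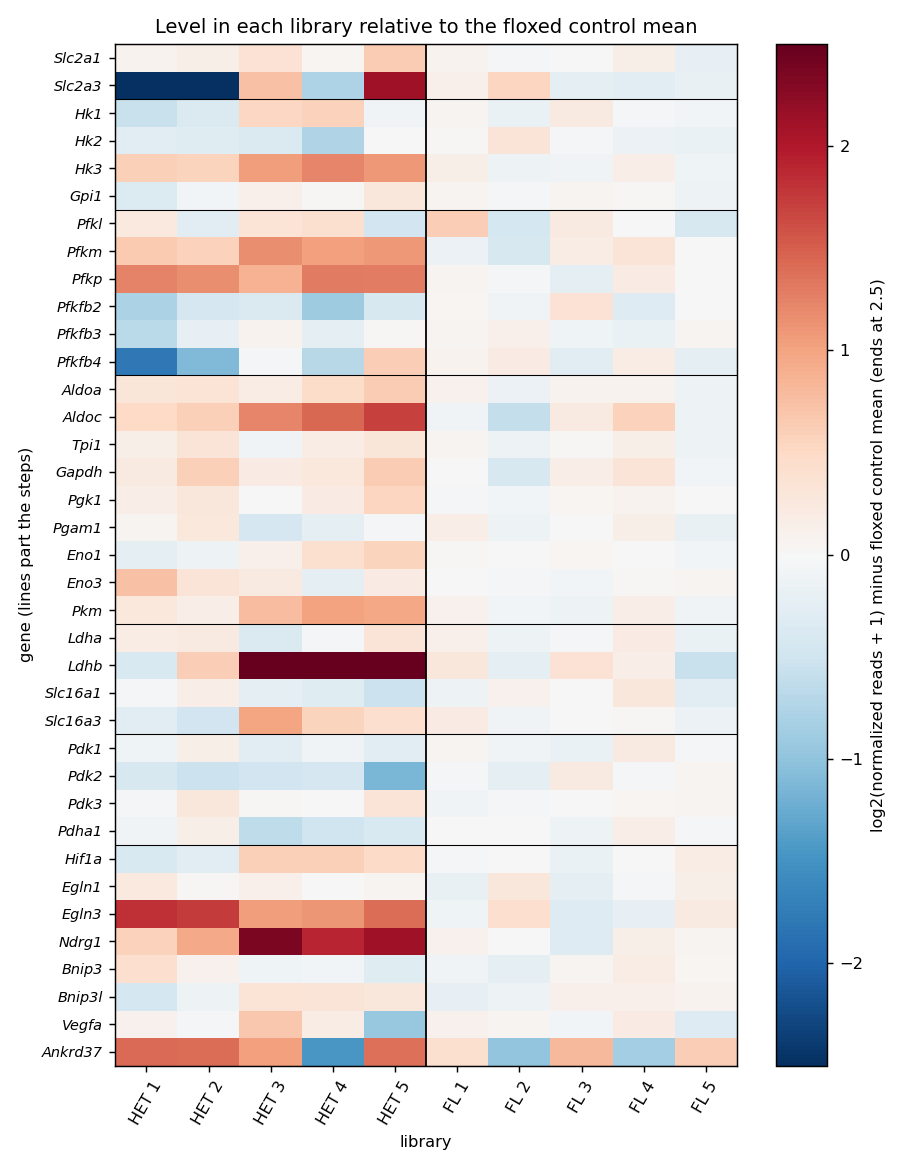
Level of each of the 37 tested genes in each of the 10 libraries, as log2 of normalized reads + 1 minus the mean of the control libraries (red higher, blue lower, colours ending at 2.5 either way), with lines between the steps and Nup214-HET left of control (FL). Slc16a3 and Hif1a are blue in Nup214-HET libraries 1 and 2 and red in libraries 3, 4 and 5, Ldhb is darkest in libraries 3, 4 and 5, and Hk3, Pfkp and Egln3 are red in all 5.

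Neither glucose transporter gene was called. Slc2a1, the transporter found in most cells, had 576, 594, 697, 558 and 841 normalized reads in Nup214-HET and 574, 522, 545, 599 and 470.3 in control (log2 change 0.26, SE 0.132, limma adjusted p = 0.198). Slc2a3, a high-affinity transporter of white blood cells and neurons, had 54.4, 72.7, 819, 288 and 2145 in Nup214-HET and 543, 715, 425, 410.1 and 438 in control. The lowest and the highest of the 10 values were thus both from Nup214-HET libraries, and the difference between the groups was within that spread (log2 change −0.77, SE 0.789, adjusted p = 0.524). Its sign depended on the measure. The means were 676 in Nup214-HET and 506 in control, a ratio of 1.34, and edgeR and DESeq2 on the recovered reads gave a positive change without a call. Without libraries 3, 4 and 5, Slc2a3 was lower in Nup214-HET (log2 change −2.95, SE 0.213, adjusted p = 1.41e-06), and without libraries 1 and 2 the log2 change was 0.69 and not called (adjusted p = 0.287). Within Nup214-HET, the neutrophil marker sums were also lowest in libraries 1 and 2 and highest in library 5. Library 4 had less Slc2a3 than any control library, while its neutrophil sum (1858166) was above those of all control libraries (at most 1678573). The part of these markers in the result was not tested.

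Among the hexokinases, which phosphorylate glucose, Hk3 rose and Hk1 and Hk2 were not called. Hk3, the isozyme typical of myeloid cells, which lacks the mitochondrial anchor of Hk1 and Hk2, had 52459, 51517, 71712, 81363 and 73739 normalized reads in Nup214-HET and 38769, 32038, 32844, 39076 and 32175 in control. Every Nup214-HET library exceeded every control library, and the means were 66158 ± 13431 in Nup214-HET and 34980.4 ± 3613 in control, a ratio of 1.89 (SD, n = 5 each; log2 change 0.90, SE 0.167, limma adjusted p = 0.00658). Hk3 kept its call in all 24 alternative settings or library subsets, with log2 changes of 0.58 to 1.12. Hk3 lies at chr13:55005985-55021385 on the minus strand and overlaps Unc5a on the other strand, and since the strand used in counting is not described, reads of the pair cannot be told apart. Hk1, the isozyme of most tissues, had 2488, 2845, 5222, 5416 and 3430.3 in Nup214-HET and 3808, 3230.4, 4233, 3547 and 3479 in control (log2 change 0.02, SE 0.201, adjusted p = 0.958). Without libraries 3, 4 and 5 it was lower in Nup214-HET (log2 change −0.45, SE 0.122, adjusted p = 0.0220), and without libraries 1 and 2 it was not called (0.33, adjusted p = 0.131). Hk2, the isozyme most induced by growth signals and low oxygen, averaged 489 ± 86.7 in Nup214-HET and 616 ± 87.7 in control (log2 change −0.34, SE 0.145, adjusted p = 0.128). Gpi1, which isomerizes the product of hexokinase, averaged 102426 ± 15691 in Nup214-HET and 101106 ± 5790.0 in control, with a log2 change of 0.01 (SE 0.166, adjusted p = 0.983).

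Per kilobase of exon, Hk3 made up 96.6% to 97.5% of the hexokinase RNA in Nup214-HET libraries and 93.7% to 95.4% in control libraries. The ranges did not overlap, and Hk1 held 2.42% on average in Nup214-HET and 4.30% in control. Such shares within a family do not depend on the scaling of a library and are given without a test.

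The gene with the smallest adjusted p among the 38 was Pfkp, the platelet-type isozyme of phosphofructokinase. Its RNA stood at 3072, 2917, 2379.9, 3186 and 3155 normalized reads in Nup214-HET and at 1367, 1277, 1093, 1510.1 and 1297 in control. The lowest Nup214-HET library lay well above the highest control library, and the means of 2942 ± 331 in Nup214-HET and 1309 ± 151 in control had a ratio of 2.25 (SD, n = 5 each; log2 change 1.17, SE 0.118, limma adjusted p = 0.000123). Its log2 change stayed between 1.0 and 1.25 in 24 alternatives and it was called in all of them. It was 1.15 without libraries 1 and 2 and 1.20 without libraries 3, 4 and 5. Pfkp lies at chr13:6579768-6648777 on the minus strand and overlaps Pitrm1 on the other strand.

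Pfkm, the muscle-type isozyme, was less abundant and had 102, 97.3, 146, 132 and 138 normalized reads in Nup214-HET and 58.5, 49.0, 74.0, 81.4 and 65.5 in control. These groups did not overlap either, and the ratio of the means, 123 ± 22.1 in Nup214-HET and 65.7 ± 12.7 in control, was 1.88 (SD, n = 5 each; log2 change 0.90, SE 0.195, limma adjusted p = 0.0130). The Pfkm call was lost without libraries 3, 4 and 5 (log2 change 0.62, adjusted p = 0.0959) and kept in the other 22 of 23 alternatives that tested it. Pfkm (chr15:98092589-98132451, plus strand) overlaps Gm26513 and Senp1. Pfkl, the liver-type isozyme, averaged 2269 ± 585 in Nup214-HET and 2214 ± 693 in control (log2 change 0.05, SE 0.221, adjusted p = 0.903). Within the phosphofructokinases, per kilobase of exon, Pfkp held 28.4% to 46.5% in Nup214-HET and 16.8% to 27.5% in control, and Pfkl 45.3% to 64.6% in Nup214-HET and 67.5% to 80.3% in control. Neither pair of ranges overlapped, so the isozyme mix contained more Pfkp and less Pfkl in every Nup214-HET library than in any control library. The annotated exons of Pfkp span 13401 bases in all, against 3340 for Pfkm, and so large a length lowers the Pfkp share in both groups alike.

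**Figure D3:**
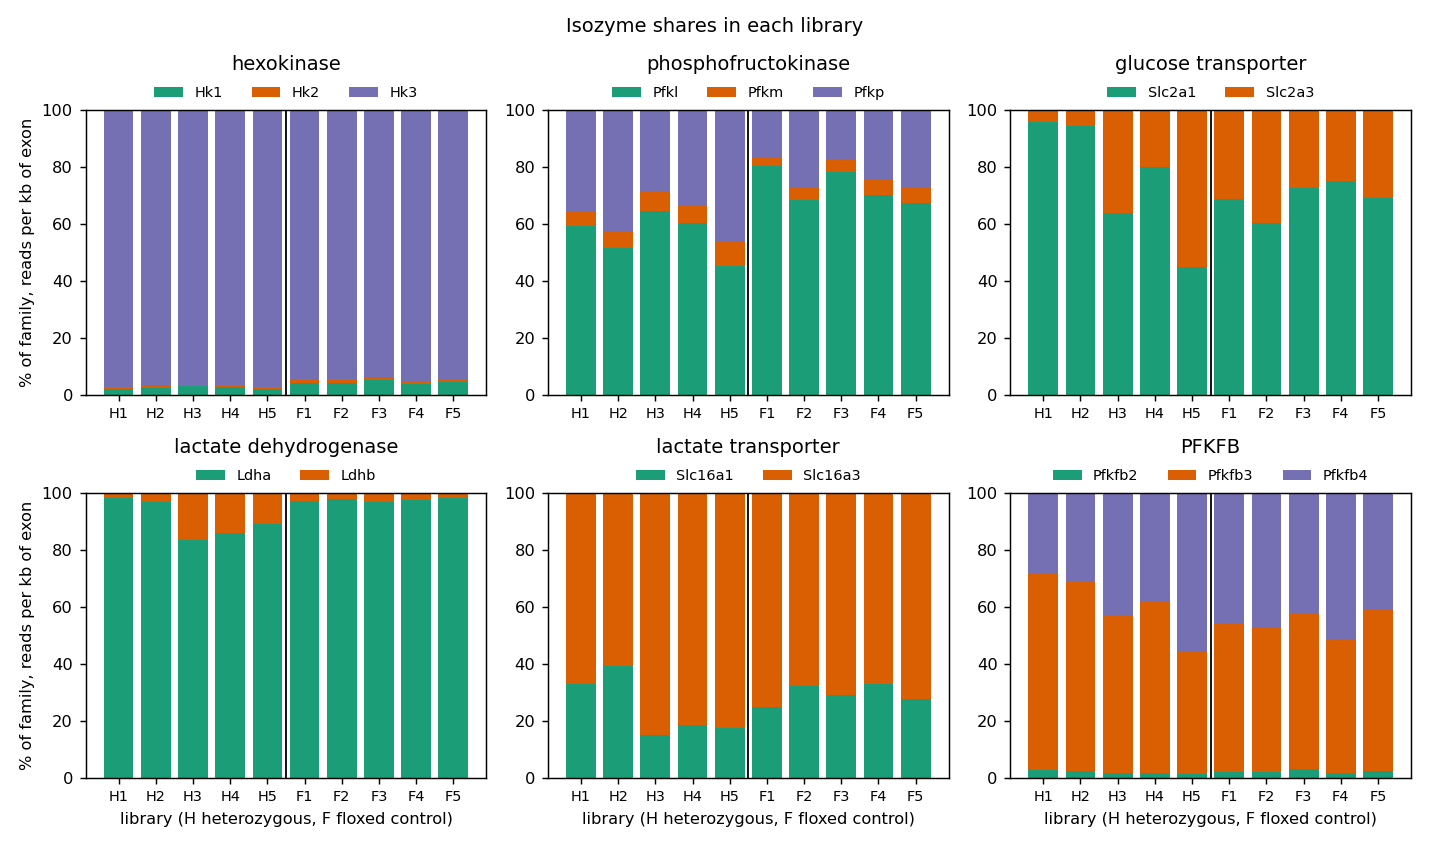
Share of each isozyme or carrier in the summed normalized reads per kb of exon of its family (percent), 1 stacked bar per library, with Nup214-HET (H) left of floxed control (F). The share of Pfkp is 37.5% ± 7.18 in Nup214-HET and 22.6% ± 5.26 in control, that of Hk3 97.1% ± 0.391 in Nup214-HET and 94.7% ± 0.632 in control (SD, n = 5 each), and the Ldhb share stands out in Nup214-HET libraries 3, 4 and 5.

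The Pfkfb genes encode bifunctional enzymes that make and remove the main allosteric activator of phosphofructokinase, and none of the 3 among the 38 genes was called. Pfkfb2, the heart-type enzyme, had 26.7, 35.1, 36.5, 24.9 and 35.4 normalized reads in Nup214-HET and 48.6, 44.4, 60.9, 37.6 and 47.2 in control, groups that did not overlap (log2 change −0.57, SE 0.223, limma adjusted p = 0.0999). Pfkfb3, the inducible form with the highest kinase activity, had 732, 1021, 1246, 1002 and 1185 in Nup214-HET and 1222, 1277, 1089, 1046 and 1227 in control (log2 change −0.20, SE 0.141, adjusted p = 0.352). Pfkfb4, a HIF-induced form, had 189.9, 306, 631, 407 and 998 in Nup214-HET and 693, 758, 545, 748 and 562 in control (log2 change −0.60, SE 0.340, adjusted p = 0.237). The Nup214-HET libraries thus spanned both sides of the control range for Pfkfb4. Without libraries 3, 4 and 5, Pfkfb4 (log2 change −1.44, SE 0.190, adjusted p = 0.000276) and Pfkfb3 (−0.43, adjusted p = 0.0472) were called lower. Without libraries 1 and 2, their log2 changes were both −0.04 (adjusted p = 0.908 for Pfkfb4 and 0.847 for Pfkfb3).

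From aldolase to pyruvate kinase, 1 of 9 genes rose (11.1%, against 5.0% of all tested genes), none fell, and the median log2 change was 0.25. The log2 change was positive in 8 of the 9 genes and in 5 of 9 after quantile normalization, so the direction of this step as a whole depends on the scaling. Aldoc, the minor aldolase gene here and best known from brain, had 22.9, 24.5, 38.1, 44.7 and 53.8 normalized reads in Nup214-HET and 14.9, 10.2, 18.7, 24.0 and 14.4 in control. The groups overlapped at 1 library each, and the means were 36.8 ± 13.2 in Nup214-HET and 16.4 ± 5.21 in control, a ratio of 2.24 (SD, n = 5 each; log2 change 1.09, SE 0.321, limma adjusted p = 0.0409). The Aldoc call was lost without control library 1, 2, 3 or 5 (adjusted p = 0.0851, 0.087, 0.0601 and 0.0823), without Nup214-HET library 3, 4 or 5 (0.0689, 0.0846 and 0.0873), and without those 3 together (log2 change 0.55, adjusted p = 0.354).

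Aldoa, the main aldolase gene, had 71528, 73084, 65376, 79258 and 89564 normalized reads in Nup214-HET and 61919, 52434, 61357, 61356 and 52740.1 in control. The groups did not overlap, but the change missed the threshold (log2 change 0.38, SE 0.149, adjusted p = 0.0999). Its log2 change was 0.05 after quantile normalization, and DESeq2 on the recovered reads called Aldoa higher (adjusted p = 0.0139). Pkm, which encodes the pyruvate kinase of most tissues, had 133996, 125713, 190101, 223217 and 218396 in Nup214-HET and 119715, 106767, 102885, 125058 and 105795 in control. Again every Nup214-HET library was above every control library, by little in libraries 1 and 2, and the ratio of the means was 1.59 (178285 ± 46078 in Nup214-HET against 112044 ± 9734 in control, SD, n = 5 each; log2 change 0.63, SE 0.210, limma adjusted p = 0.0617). With all 10 libraries kept, Pkm was called higher under upper-quartile scaling (adjusted p = 0.0475), TMM scaling (0.0432), library weights (0.031), edgeR (0.0442) and DESeq2 (0.0049), and when genes with a mean under 100 were left out (0.0415), and its log2 change was 0.23 after quantile normalization (adjusted p = 0.462). It also passed the threshold without Nup214-HET library 1 (adjusted p = 0.0408), without library 2 (0.0406) and without both (log2 change 0.91, adjusted p = 0.0049), and had a log2 change of 0.22 without libraries 3, 4 and 5 (adjusted p = 0.369).

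The other genes of this stretch were not called. Tpi1, which interconverts the triose phosphates, averaged 23324 ± 2599 normalized reads in Nup214-HET and 20622 ± 1703 in control (log2 change 0.17, limma adjusted p = 0.356). Gapdh, the enzyme that yields NADH, averaged 119526 ± 17757 in Nup214-HET and 92017 ± 16559 in control (adjusted p = 0.172), and Pgk1, the first ATP-yielding enzyme, 9219 ± 1297 in Nup214-HET and 7757 ± 362 in control (log2 change 0.24, adjusted p = 0.171). Pgam1, the mutase after it, averaged 46451 ± 8468 in Nup214-HET and 48362 ± 5157 in control (log2 change −0.07, adjusted p = 0.789). Eno1, the enolase of most tissues, averaged 126844 ± 29887 in Nup214-HET and 112464 ± 3605 in control (log2 change 0.14, adjusted p = 0.631), and Eno3, the muscle enolase, 68.5 ± 17.0 in Nup214-HET and 56.2 ± 2.21 in control (log2 change 0.25, adjusted p = 0.411). For both enolases the SD of the Nup214-HET libraries was several times that of control. Named processed copies in the table, which can share reads with their parent gene, reached at most 2.74% of the level of Pgk1, 0.987% of Pgam1, 0.754% of Eno1 and 3.07% of Ldhb.

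**Figure D4:**
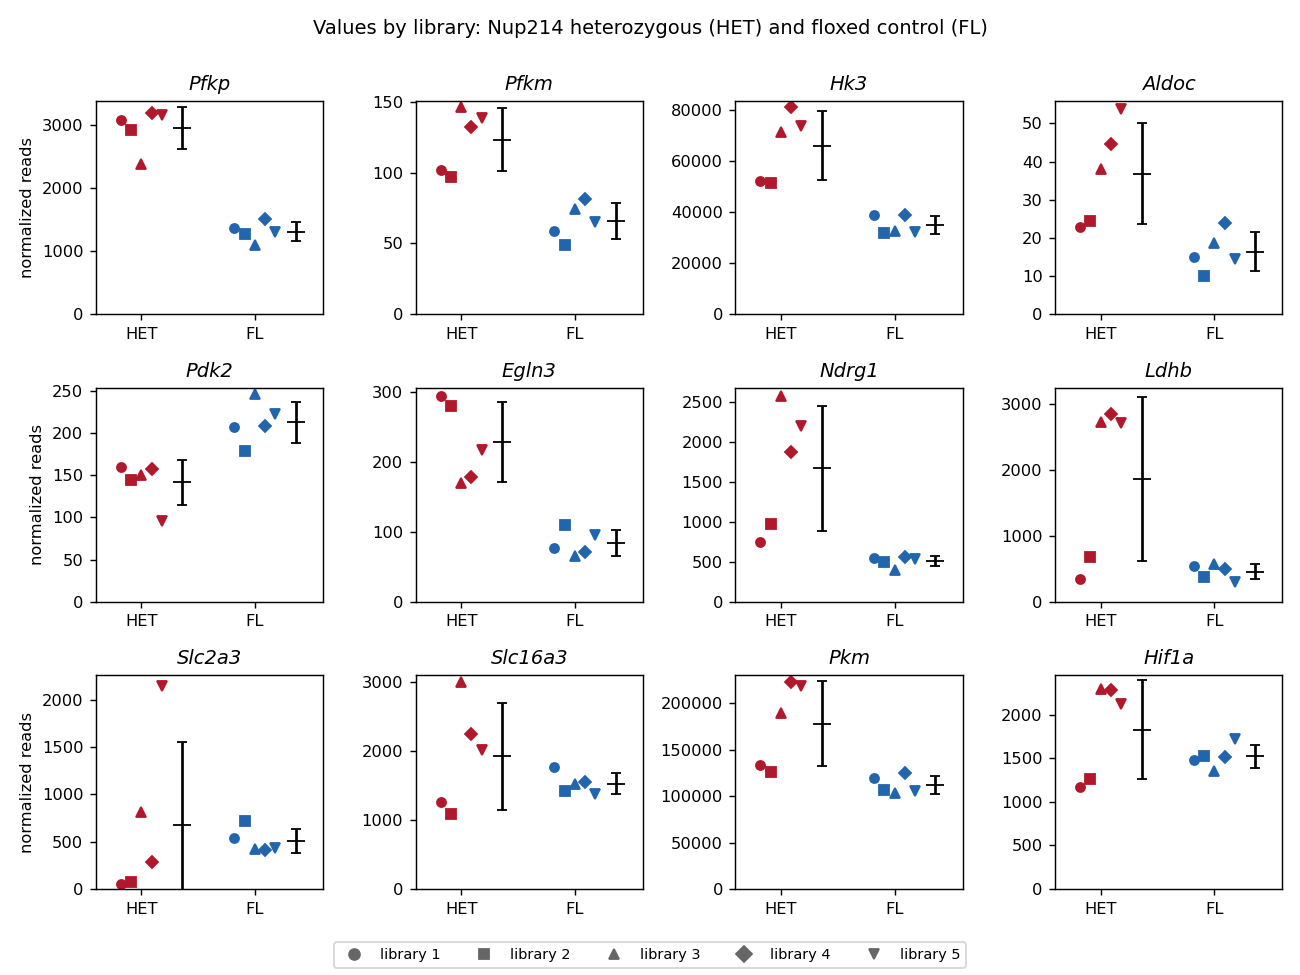
Normalized reads of 12 genes in each library, 1 symbol per library number, with Nup214-HET left of floxed control (FL), a linear axis from 0 in each panel and black bars for mean ± SD (n = 5 each; the lower bar of Slc2a3 in Nup214-HET ends at the axis). Pfkp in Nup214-HET lies between 2379.9 and 3186 and in control between 1093 and 1510.1, while Ldhb in Nup214-HET splits into 342 and 676 for libraries 1 and 2 and 2717 to 2854 for libraries 3, 4 and 5.

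No lactate gene was called by limma over all libraries, although Ldhb was close to the threshold, and the calls of 2 of the 4, Ldhb and Slc16a3, depended on which Nup214-HET libraries were used. Ldha, the lactate dehydrogenase subunit that favours lactate formation, had 42459.8, 43889.8, 29378, 36494 and 46959.7 normalized reads in Nup214-HET and 41012, 34362, 36300.1, 43209.5 and 33675 in control (log2 change 0.07, limma adjusted p = 0.798). Ldhb, the subunit that favours lactate use, had 342, 676, 2739, 2854 and 2717 in Nup214-HET and 538, 371, 572, 497 and 299 in control. Nup214-HET libraries 1 and 2 were near the control range and libraries 3, 4 and 5 far above it, with means of 1865 ± 1245 in Nup214-HET and 455 ± 116 in control (SD, n = 5 each; log2 change 1.63, SE 0.517, adjusted p = 0.0531). Without libraries 1 and 2 the Ldhb log2 change was 2.64 (SE 0.188, adjusted p = 2.41e-06), and without libraries 3, 4 and 5 it was 0.12 (adjusted p = 0.782). Leaving out Nup214-HET library 1 or 2 alone also made the call (adjusted p = 0.00499 and 0.0384). With all 10 libraries kept, Ldhb was called higher under upper-quartile scaling (adjusted p = 0.033), TMM scaling (0.046), library weights (0.016), edgeR (0.0266) and DESeq2 (0.00594). Ldhb thus held 1.67% and 3.14% of lactate dehydrogenase RNA per kb in Nup214-HET libraries 1 and 2 and 16.4%, 14.2% and 10.9% in libraries 3, 4 and 5, against 1.84% to 3.21% in control. The marker sums separated the same libraries: in libraries 3, 4 and 5 the erythroid and neutrophil sums were the highest and the monocyte and macrophage sum, dominated by Ly6c2, the lowest. Most monocyte and macrophage markers did not follow that sum. Without libraries 1 and 2, 6 of the 12 were called higher (50%, against 9.91% of all genes) and 1 lower (8.33%, against 12.5%). The part of these markers in the Ldhb result was not tested.

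Slc16a1, a carrier that moves lactate in either direction, averaged 464 ± 87.9 normalized reads in Nup214-HET and 526 ± 77.8 in control (log2 change −0.19, limma adjusted p = 0.403). Slc16a3, the lactate exporter of glycolytic cells and a HIF target, had 1259.6, 1087, 3005, 2242 and 2022 in Nup214-HET and 1762, 1426, 1517, 1549.8 and 1377 in control. Libraries 1 and 2 lay below all control libraries and libraries 3, 4 and 5 above them, and the log2 change over all libraries was 0.24 (SE 0.230, adjusted p = 0.494). Dropping libraries 1 and 2 gave 0.65 (adjusted p = 0.00589) and dropping libraries 3, 4 and 5 gave −0.38 (SE 0.123, adjusted p = 0.0486), calls in opposite directions.

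Pyruvate dehydrogenase kinases switch off the complex that feeds pyruvate into the citric acid cycle. Of the 4 genes tested at this step, 1 fell (25%, against 8.01% of all tested genes). Pdk2, the most widely expressed kinase, had 160.3, 145, 151, 157 and 95.3 normalized reads in Nup214-HET and 207, 179, 247, 209 and 223 in control. Every Nup214-HET library was below every control library, with library 5 the lowest, and the means were 142 ± 26.6 in Nup214-HET and 213 ± 24.5 in control (SD, n = 5 each; log2 change −0.60, SE 0.167, limma adjusted p = 0.0341). This call was near the threshold: it was lost without control library 1, 3, 4 or 5 (adjusted p = 0.0727, 0.0741, 0.0584 and 0.0761), without Nup214-HET library 5 (0.0561), without libraries 3, 4 and 5 (0.0656), and with the replicate number as a block (0.0676). It was also lost under quantile normalization (limma adjusted p = 0.0618), upper-quartile scaling (0.0903) and TMM scaling (0.056), and without a filter (0.0545). Pdk2 lies at chr11:95026258-95041354 on the minus strand and overlaps Gm11513 on the other strand. Pdk1, the kinase most induced by Hif1a, averaged 792 ± 98.9 in Nup214-HET and 859.6 ± 90.5 in control (log2 change −0.12, adjusted p = 0.505). Pdk3 averaged 1171 ± 145 in Nup214-HET and 1075 ± 50.2 in control (log2 change 0.12, adjusted p = 0.475). Pdk4, the kinase induced by fasting, was near the detection limit, with values between 0 and 0.954 in Nup214-HET and between 0 and 1.31 in control, and was not tested. Per kilobase of exon, Pdk2 held 4.67% to 9.11% of the kinase RNA in Nup214-HET and 9.96% to 13.01% in control, and Pdk3 72.6% to 81.3% in Nup214-HET and 68.5% to 71.7% in control. Pdha1, the catalytic subunit that these kinases phosphorylate, had 2339, 2741, 1589.5, 1749 and 1907 in Nup214-HET and 2475, 2496, 2279, 2775 and 2410.2 in control (log2 change −0.29, adjusted p = 0.173). Pdha1 was lower in Nup214-HET without libraries 1 and 2 (log2 change −0.51, adjusted p = 0.0059) and had a log2 change of 0.03 without libraries 3, 4 and 5 (adjusted p = 0.881).

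Of Hif1a and 7 genes of its response, Egln3 and Ndrg1 rose (25%, against 5.0% of all tested genes) and none fell. Hif1a RNA had 1169.9, 1264, 2301, 2289 and 2126 normalized reads in Nup214-HET and 1485, 1531, 1351, 1518 and 1725 in control. As with Slc16a3, libraries 1 and 2 were below every control library and libraries 3, 4 and 5 above, and the change over all libraries was not called (log2 change 0.21, SE 0.192, limma adjusted p = 0.476). Without libraries 1 and 2 the Hif1a log2 change was 0.56 (adjusted p = 0.00319), and without libraries 3, 4 and 5 it was −0.32 (adjusted p = 0.0732).

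Egln3 encodes a prolyl hydroxylase of HIF proteins whose own gene is a strong HIF target. It had 294, 279, 169.8, 178 and 217 normalized reads in Nup214-HET and 76.4, 110.0, 65.6, 71.0 and 95.6 in control. All Nup214-HET libraries were above all control libraries, with libraries 1 and 2 the highest, and the means of 228 ± 57.0 in Nup214-HET and 83.7 ± 18.5 in control had a ratio of 2.72 (SD, n = 5 each; log2 change 1.42, SE 0.205, limma adjusted p = 0.00164). Egln3 was called in all 24 alternatives, with log2 changes of 1.18 to 1.79, and no other gene of the annotation overlaps it (chr12:54178981-54203860, minus strand). Egln1, the hydroxylase that does most of the oxygen sensing in most cells, averaged 88.1 ± 5.94 in Nup214-HET and 83.1 ± 12.9 in control (log2 change 0.09, adjusted p = 0.72).

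Ndrg1, induced by low oxygen, by metal chelation and during differentiation, had 751, 969, 2568, 1874 and 2193 normalized reads in Nup214-HET and 542, 498, 401, 558 and 529 in control. The groups did not overlap, and libraries 3, 4 and 5 were the highest (1671 ± 784 in Nup214-HET against 506 ± 62.5 in control, a ratio of 3.30; SD, n = 5 each; log2 change 1.58, SE 0.288, limma adjusted p = 0.006). The Ndrg1 call held in all 24 alternatives, with a log2 change of 2.12 without libraries 1 and 2 and 0.76 without libraries 3, 4 and 5 (adjusted p = 0.00499). Ndrg1 (chr15:66929318-66969640, minus strand) overlaps the predicted genes Gm17035 and Gm2895 on the other strand.

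The 4 other HIF targets were not called. Bnip3, a receptor for the removal of mitochondria, averaged 556 ± 110.1 normalized reads in Nup214-HET and 545 ± 58.4 in control (log2 change 0.01, limma adjusted p = 0.956). Its relative Bnip3l, which clears mitochondria from maturing red cells, averaged 4199 ± 941 in Nup214-HET and 3906 ± 412 in control (log2 change 0.08, adjusted p = 0.759). Vegfa, the angiogenic growth factor, averaged 79.8 ± 29.4 in Nup214-HET and 75.8 ± 10.1 in control (adjusted p = 0.992). Ankrd37, one of the more specific HIF targets, had 19.1, 18.8, 14.3, 1.72 and 18.5 in Nup214-HET and 8.93, 2.77, 12.2, 3.13 and 10.5 in control, which is 4 libraries above all control libraries and 1 below (log2 change 0.76, SE 0.594, adjusted p = 0.398).

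Leaving out the Nup214-HET libraries that stood apart changed the set of called genes. These 2 sets of libraries were distinguished by their marker sums and are not groups of the study, and the difference between them was not tested. Without libraries 1 and 2, 10 of the 37 genes were higher (27.0%, against 9.91% of 21174 genes) and 2 lower (5.41%, against 12.5%). The genes added to the higher calls were Pkm, Ldhb, Slc16a3 and Hif1a, and Pdha1 joined Pdk2 among the lower ones. Without libraries 3, 4 and 5, 4 genes were higher (10.8%, against 8.39% of 20571 genes) and 5 lower (13.5%, against 9.31%). The higher genes were then Hk3, Pfkp, Egln3 and Ndrg1, and the lower ones Slc2a3, Hk1, Pfkfb3, Pfkfb4 and Slc16a3. Hk3, Pfkp, Egln3 and Ndrg1 were higher in both. The 2 fits share the 5 control libraries and are not independent. Every Nup214-HET library lay above every control library in these 4 genes, so the direction was fixed beforehand.

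**Figure D5:**
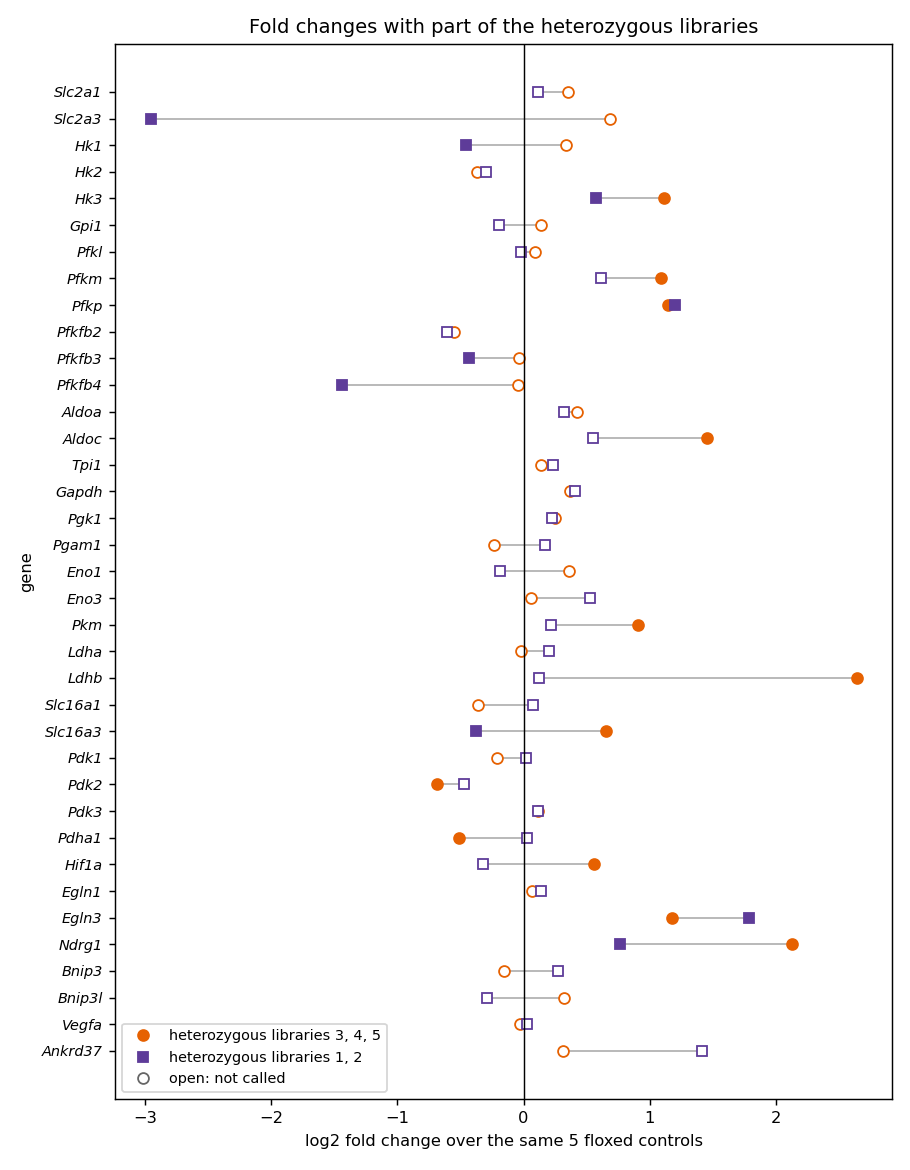
Log2 change of each of the 37 tested genes over the 5 control libraries, from Nup214-HET libraries 3, 4 and 5 (orange circles, libraries 1 and 2 left out) and from libraries 1 and 2 (purple squares, libraries 3, 4 and 5 left out), filled where the adjusted p is under 0.05. The symbols of Pfkp nearly coincide (1.15 and 1.20), whereas those of Ldhb (2.64 and 0.12) and Slc2a3 (0.69 and −2.95) are the farthest apart.

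Related genes of the same pathways, 110 on 5 lists, were read from the same fit. Of the 93 tested, 7 rose (7.53%, against 5.0% of all tested genes) and 8 fell (8.60%, against 8.01%), and their median log2 change was 0.04. Without libraries 1 and 2, 18 of 91 were higher (19.8%, against 9.91%) and 10 lower (10.99%, against 12.5%). Without libraries 3, 4 and 5, 12 of 87 were higher (13.8%, against 8.39%) and 16 lower (18.4%, against 9.31%). Among 23 tested isozymes and carriers beyond the 38, Pgm2, a phosphoglucomutase linking glycogen to glycolysis, rose (821 ± 106 in Nup214-HET against 552 ± 53.0 normalized reads in control, SD, n = 5 each; log2 change 0.57, limma adjusted p = 0.0115). The fructose transporter gene Slc2a5 (4.18 ± 6.43 in Nup214-HET against 23.7 ± 8.71 in control, log2 change −2.87, limma adjusted p = 0.0147), the urate and hexose transporter gene Slc2a9 (32.5 ± 7.0 in Nup214-HET against 63.1 ± 12.6 in control, log2 change −0.94, adjusted p = 0.0234) and Pgm1 (1855 ± 167 in Nup214-HET against 2414 ± 181 in control, log2 change −0.38, adjusted p = 0.0303) fell. A 4th gene of that list, Galm, fell as well (adjusted p = 0.0388, and at most 0.0856 with a library left out). Of the 23 genes, 1 thus rose (4.35%, against 5.0% of all tested genes) and 4 fell (17.4%, against 8.01%). Pfkfb1, a further member of the Pfkfb family, was below every control library in each Nup214-HET library without being called (30.8 ± 5.05 in Nup214-HET against 46.1 ± 2.26 in control, log2 change −0.58, adjusted p = 0.0749). Of 13 tested genes of pyruvate entry and oxidation, 1 rose (7.69%, against 5.0% of all tested genes) and none fell. It was Pck2, the mitochondrial enzyme that makes phosphoenolpyruvate (1442 ± 247 in Nup214-HET against 1019.9 ± 91.8 in control, log2 change 0.49, adjusted p = 0.0266). Several of these calls were lost when 1 library was left out. Pgm1 lost its call whichever of the control libraries 1 to 5 was dropped (adjusted p = 0.0529 to 0.0678), Slc2a9 without control library 3, 4 or 5 (0.051, 0.0502 and 0.0588) and Pck2 without control library 1, 2 or 5 (0.0548, 0.0578 and 0.068). None of the 10 pentose phosphate pathway genes was called by limma. Without libraries 1 and 2, 4 of those 10 were called higher, where 9.91% of all genes were, and without libraries 3, 4 and 5, 1 was called higher and 1 lower, where 8.39% and 9.31% of all genes were.

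Among 17 genes of the HIF system and oxygen sensing, none rose and 1 fell (5.88%, against 8.01% of all tested genes). Hif3a, a family member that can dampen HIF signalling, fell to 5.40 ± 3.68 normalized reads in Nup214-HET, against 22.9 ± 7.04 in control (SD, n = 5 each; log2 change −2.04, limma adjusted p = 0.0107). Of 30 other HIF targets tested, 5 rose (16.7%, against 5.0% of all tested genes) and 3 fell (10%, against 8.01%). Ak4, a mitochondrial adenylate kinase, had 48.7, 18.8, 105.5, 111.8 and 95.3 in Nup214-HET and 6.9, 12.9, 6.6, 12.5 and 15.7 in control, with no overlap (log2 change 2.51, adjusted p = 0.00618). Fam162a, a mitochondrial protein gene induced by hypoxia, rose to 435 ± 52.5 in Nup214-HET, against 273 ± 27.3 in control (log2 change 0.66, adjusted p = 0.00786). Flt1, a VEGF receptor, fell to 35.2 ± 10.4 in Nup214-HET, against 81.1 ± 7.82 in control (log2 change −1.22, adjusted p = 0.00609), and the nuclear receptor gene Rora fell as well (log2 change −2.28, adjusted p = 0.0171). The others were Mxi1, a Myc antagonist, the lipid droplet gene Plin2 and the cytokine gene Mif, which rose, and the zinc finger gene Zfp395, which fell. Each of those 4 lost its call in at least 1 fit with a library left out (highest adjusted p 0.0659 for Mxi1, 0.075 for Plin2, 0.103 for Mif and 0.066 for Zfp395). Without libraries 3, 4 and 5, Ak4 (adjusted p = 0.0545), Rora (0.0588), Slc2a5 (0.078), Slc2a9 (0.069) and Pgm2 (0.0509) missed the threshold.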

How the data were processed

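RNA-seq libraries from sorted mouse leukemia stem cells were compared, 5 Nup214-HET and 5 control by their labelled genotype. According to the protocols per the labels, miRNeasy-purified total RNA was amplified by Geo-seq, a protocol for small cell numbers, and TruePrep kits gave the libraries; molecular identifiers and strand are not described, so depth speaks to counting error only. The submitters' processing notes list the build mm10 and, without roles, HTSeq, DESeq2, Cufflinks 2.1.1 and Bowtie 0.12.9; their gene annotation and filters are not stated there.

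The deposited signal values are whole read counts divided by 1 factor per library: dividing by each library's smallest step left whole numbers, within 0.01, for every value of 8 libraries and for no less than 99.996% elsewhere. They are called normalized reads. The design foresaw a log-scale test for normalized values and edgeR for raw counts, and the values were normalized. Limma 3.58.1 (R 4.3.3) with an intensity trend with a single group term was fitted to log2(normalized reads + 1) for the 22458 genes with at least 1 normalized read in at least 5 libraries, with Benjamini-Hochberg adjustment over all of them and a threshold of 0.05. Fold changes on this scale understate changes of low genes. Ratios are of group means. Of 52171 symbols, 49806 matched GENCODE vM21, which gave gene positions, overlaps and exon lengths.

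The 38 genes, the related and marker lists and the library subsets were chosen with earlier results of these data known. All 38 are named, with values by library for called genes and for genes whose call changed with the subsets; from each related list, up to 4 called genes with the smallest adjusted p are described, and any other is named only. Alternatives were 3 other scalings, 3 filters, 2 pseudocounts, library weights, the replicate number as a block, count tests on the recovered reads with DESeq2 1.42.0 and edgeR 4.0.16, and leaving out libraries. A run on simulated data is not reported here, so nothing about the p-values is concluded from it. The real libraries had an uneven spread. Chi-square per degree of freedom reached 567 within Nup214-HET (libraries 2 and 5), against 63.5 within control (libraries 2 and 3). How so uneven a spread affects the error rate of the tests was not tested. The most similar pair of same-group libraries differed by more than counting noise (chi-square 15.5 per degree of freedom), so no pair was taken for copies of 1 library; whether libraries share a mouse cannot be read from this.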

Additional observations from a re-analysis of the deposited data

Results flagged for a closer look

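The described genes, Nup214, library depth and the number of genes with a read were checked in 82 groups of 5 libraries. Of these, 3 held a library far from the other 4, where chance flags about 1 in 20, so the 3 flags are no excess. Pdk2 had 95.3279 normalized reads in Nup214-HET library 5, against 145 to 160.3 in the other 4, and the Pdk2 call was lost without that library (adjusted p = 0.0561). Ankrd37 had 1.72008 normalized reads in Nup214-HET library 4, against 14.3 to 19.1 in the other 4. Pdk4 had 1.30989 normalized reads in control library 5 and 0 in the other 4 control libraries, which is a value of about 1 read.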

How the results depend on the processing

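Pfkp, Egln3, Ndrg1 and Hk3 kept their calls in all 24 alternatives (highest adjusted p 0.00115, 0.0068, 0.0209 and 0.04), Pfkm in 22 of 23, Pdk2 in 13 of 24 and Aldoc in 12 of 23. Of 1115 single-gene values, 980 kept their side of the threshold and their direction, 50 lost a call, 24 gained one, 59 changed sign without being called either time, and 2 turned a positive change into a call lower: Hk1 (−0.45) and Slc16a3 (−0.38), both without Nup214-HET libraries 3, 4 and 5. The cause was not tested. Genes higher among the 38 numbered 6, 10 without Nup214-HET libraries 1 and 2, and 5 to 8 with any single library left out; genes lower numbered 1, 0 under quantile, upper-quartile and TMM scaling, without a filter and with the block, 2 without libraries 1 and 2, 5 without libraries 3, 4 and 5, and 0 to 1 with a single library left out. Related genes higher numbered 7, 3 under quantile normalization, 4 with the block, 12 with DESeq2 and also without libraries 3, 4 and 5, 18 without libraries 1 and 2, and 3 to 10 with a single library left out; related genes lower numbered 8, 5 under quantile normalization, 2 at a mean of at least 100, 3 with the block, 16 without libraries 3, 4 and 5, and 4 to 8 with a single library left out.

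Over all genes, 1122 were higher, 703 with the block, 2098 without libraries 1 and 2, 1725 without libraries 3, 4 and 5, and 546 to 1308 with a single library left out. Genes lower numbered 1798, 517 under quantile normalization, 1119 without a filter, 1063 at 5 or more in 5 libraries, 311 at a mean of at least 100, 1028 with a pseudocount of 0.1, 945 with the block, 808 with edgeR, and 484 (without control library 1) to 2171 (without Nup214-HET library 1) with a single library left out. Higher calls were 38.4% of all calls, against 60.1% under quantile normalization, 47.5% under upper-quartile scaling, 47.1% under TMM, 51.3% at 5 or more in 5 libraries, 75.5% at a mean of at least 100, 48.7% with a pseudocount of 0.1 and 55.6% with edgeR, so the balance of directions over all genes depended on scaling and on low genes.

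The replicate numbers share only a number: deviations of same-numbered libraries correlated between −0.0905 and 0.0817, and 1 of 5 Nup214-HET libraries correlated best with its own number. With the number as a block, Pdk2 (0.0676) and Aldoc (0.0549) lost their calls. Pdk4 and Ankrd37 lie near the detection limit, where a few reads decide the value.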
